A study of Sus scrofa with 8 samples.

Results

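PDGFRA, KIT, KDR, PDGFRB and CSF1R encode receptor tyrosine kinases and lie in 2 gene neighbourhoods of the pig genome, PDGFRA-KIT-KDR on chromosome 8 and PDGFRB-CSF1R on chromosome 2. These 5 genes were taken by name from the 25757 RefSeq genes of Sscrofa11.1 on chromosomes 1 to 18 and X, of which 19487 are protein-coding. Pig embryonic fibroblasts (PEFs), untreated, were profiled by ChIP-seq of the histone marks H3K4me3 and H3K27ac and of the protein CTCF, with 2 replicates each, making 6 libraries. The PEFs came from Large White fetuses 35 days old and were cultured for 24 h, and the labels do not say whether the replicates came from separate cultures or fetuses. Each library is given as a list of peaks, which are stretches of the genome where the pulled-down DNA exceeds a control, and the fold enrichment of a peak is its height at the summit over that control.

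Receptor tyrosine kinases bind a secreted ligand outside the cell and pass the signal on by phosphorylating tyrosines inside it. PDGFRA and PDGFRB bind platelet-derived growth factors and are known from fibroblasts and other mesenchymal cells, PDGFRB also from pericytes. Their close relatives next door belong to other lineages: KIT, the receptor of stem cell factor, to melanocytes, mast cells, germ cells and blood stem cells, KDR, a VEGF receptor, to endothelial cells, and CSF1R, the receptor of CSF1 and IL34, to macrophages. H3K4me3 marks promoters, H3K27ac marks active promoters and enhancers, and CTCF is bound at the borders of many chromatin domains and loops, where the motifs of a pair of anchors usually point toward each other. The comparison here was between the fibroblast receptors and their neighbours, at the transcription start site (TSS), along the gene and in the DNA that separates them.

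PDGFRA, chr8:40966568-41021440, lies on the plus strand and has 24 exons over 54.9 kb. KIT, chr8:41402334-41492306, lies on the plus strand 381 kb beyond its end and has 22 exons over 90.0 kb. KDR, chr8:41809116-41856379, lies on the minus strand, so that KIT and KDR converge, and has 30 exons over 47.3 kb. PDGFRB, chr2:151155753-151192818, and CSF1R, chr2:151102138-151130311, both lie on the minus strand, separated by 25.4 kb, and have 23 exons over 37.1 kb and 22 exons over 28.2 kb. The TSSs of PDGFRA and KIT lie 436 kb apart, those of KIT and KDR 454 kb, and those of PDGFRB and CSF1R 62.5 kb. The reference pig was a Duroc, whereas white breeds such as Large White commonly carry a duplicated segment that includes KIT, and copy number was not analysed here.

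The 250 bases upstream of the TSS are shown for PDGFRA, KIT and CSF1R, which differ most in base composition and, as described below, in their marks. CpG dinucleotides are in capitals. The sequences were read 5′ to 3′ on the strand of the gene from the RefSeq genome of Sscrofa11.1.
PDGFRA, chr8:40966318-40966567, plus strand: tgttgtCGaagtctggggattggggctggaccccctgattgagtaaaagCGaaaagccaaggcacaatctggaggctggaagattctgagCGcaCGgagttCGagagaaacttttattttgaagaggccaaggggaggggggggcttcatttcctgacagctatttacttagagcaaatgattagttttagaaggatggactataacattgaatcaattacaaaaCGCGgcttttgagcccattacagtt
KIT, chr8:41402084-41402333, plus strand: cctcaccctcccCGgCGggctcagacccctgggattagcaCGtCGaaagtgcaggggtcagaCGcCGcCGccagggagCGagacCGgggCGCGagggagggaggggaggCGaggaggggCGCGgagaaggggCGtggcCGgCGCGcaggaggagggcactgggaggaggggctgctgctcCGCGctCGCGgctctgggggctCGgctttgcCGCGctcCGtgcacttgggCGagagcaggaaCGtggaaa
CSF1R, chr2:151130312-151130561, minus strand: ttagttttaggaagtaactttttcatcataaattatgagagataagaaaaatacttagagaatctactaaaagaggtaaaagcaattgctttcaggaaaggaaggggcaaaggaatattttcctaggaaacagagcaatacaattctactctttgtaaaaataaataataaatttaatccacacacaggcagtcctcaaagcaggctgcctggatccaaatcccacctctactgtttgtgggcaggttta

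These 250 bases held 7 CpGs in PDGFRA, 28 in KIT and none in CSF1R, against 22 in KDR and 15 in PDGFRB. In the 1001 bp centred on the TSS, KIT had 103 CpGs, KDR 80, PDGFRB 56, CSF1R 30 and PDGFRA 21, compared with a median of 54 over 19486 protein-coding genes. GC content was 71.5% for KIT, 66.0% for PDGFRB and 63.7% for KDR, above the median of 58.3%, and 45.9% for CSF1R and 43.3% for PDGFRA, below it. The ratio of observed to expected CpGs was 0.817 for KIT and 0.787 for KDR, at percentiles 77.1 and 71.5 of all genes. It was 0.453 for PDGFRA, 0.515 for PDGFRB and 0.572 for CSF1R, at percentiles 34.2, 38.1 and 42.0. By this ratio, both fibroblast receptors had CpG-poorer start sites than the median gene (0.655), as had CSF1R, and KIT and KDR had CpG-richer ones, although PDGFRB was above the median in GC content. Short promoter sequences were sought on either strand. A GC box (GGGCGG, held by 46.0% of all promoters of this length) was found in the upstream bases of KDR and PDGFRB. A CCAAT box (CCAAT, 31.8%) was found in those of PDGFRA, on the opposite strand, so that the bases shown read attgg. Neither a TATA box (TATAAA, 9.64%) nor the core of a PU.1 site (GAGGAAG, 10.04%) was found in any of the 5. PU.1 is a factor of the macrophage lineage, and no match says only that these letters are not in this window.

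CTCF sites were numbered along each neighbourhood, from 200 kb before the first gene to 200 kb after the last, where a site is a stretch with overlapping peaks in both replicates. Of 33 such sites (17 around PDGFRA, KIT and KDR, 16 around PDGFRB and CSF1R), 32 held a match to the CTCF motif with a p under 0.0001 per position, compared with 90.9% of sites on the even-numbered autosomes. The motifs of most of the sites that separate the members are shown, 29 bases each on the strand of the motif, with the 19 bases of the match in capitals. Sites 4 to 7 lie between PDGFRA and KIT, sites 8 and 9 in intron 1 of KIT, sites 10 to 13 between KIT and KDR, and site 14 beyond KDR.
CTCF site 4, chr8:41035962-41035990, plus strand: ttcaaGTACCACAAGGGGCTGCTAgagag
CTCF site 5, chr8:41040526-41040554, plus strand: caagtTGGCCACAAGGGGGAAGCAtcaca
CTCF site 6, chr8:41107155-41107183, minus strand: ggttgTGCCCAGCAGGTGGCTGTAgagtc
CTCF site 7, chr8:41163649-41163677, minus strand: cttccCTGTCACTAGATGGGGCTCactag
CTCF site 8, chr8:41403166-41403194, plus strand: gaaagCAGCCGCTAGGTTGCAGACttttt
CTCF site 10, chr8:41606868-41606896, minus strand: atgtcCTGCCTCTAGGGGGCAGAGttgag
CTCF site 11, chr8:41709883-41709911, minus strand: taaacTGGCCACAAGAGGGCTCTAtttct
CTCF site 12, chr8:41720148-41720176, plus strand: aaagtTAGACACTAGGTGGTGTTCttagc
CTCF site 13, chr8:41728969-41728997, plus strand: cccatTGTCCTGCAAGGGGCACTCtggtt
CTCF site 14, chr8:42008851-42008879, minus strand: gaatcCTGCCTCCAGGTGGCGCTAatgtt

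Around PDGFRB and CSF1R, sites 6 to 8 lie between the TSSs of both genes and within PDGFRB, and site 9 lies 4.74 kb upstream of PDGFRB.
CTCF site 6, chr2:151155956-151155984, plus strand: gctgaCAACCAGCACAGGGGGCTGgtgtc
CTCF site 7, chr2:151170057-151170085, minus strand: tcccaCCACCACCCCGGGGCGCTCcctgc
CTCF site 8, chr2:151182388-151182416, plus strand: tggccTGGCCGCCAGGCGGCTGCTccaag
CTCF site 9, chr2:151197548-151197576, plus strand: tcaggACGCCGGCAGGTGGCGCCCccagc

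Of the 5 receptors, 4 carried H3K4me3 at the TSS, and only the 2 fibroblast receptors also carried H3K27ac there. The call needed a peak within 1 kb of the annotated 5′ end in both replicates. Among all protein-coding genes 68.9% had such an H3K4me3 peak, 60.7% an H3K27ac peak and 17.9% a CTCF peak. KIT and KDR thus fell among the 12.0% of H3K4me3 genes (1608 genes) that had no H3K27ac peak in either replicate, and PDGFRA and PDGFRB among the 85.5% that had it in both. CSF1R fell among the 27.5% of genes (5365) with neither histone mark. As all cells of a culture were pulled down together, fewer cells with a mark and less of it per cell cannot be told apart.

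At PDGFRA, the H3K4me3 peak had a fold enrichment of 49.0 in replicate 1 and 37.4 in replicate 2, and was 11457 bp and 13024 bp wide. It reached from 3358 bp upstream of the TSS to 8098 bp downstream in replicate 1, and from 3744 bp to 9279 bp in replicate 2, so that most of it lay over exon 1 and intron 1. Few H3K4me3 peaks on chromosomes 1 to 18 and X were as wide, 64 in replicate 1 and 68 in replicate 2 including this one. Its width stood at percentile 99.5 of the genes with a peak in both replicates, whereas its fold enrichment stood at percentile 44.1 in replicate 1 and 90.9 in replicate 2. The H3K27ac peak covered nearly the same stretch, with 36.3-fold and 30.7-fold enrichment (percentiles 96.4 and 83.2) and widths of 12196 and 12607 bp (percentiles 97.84 and 98.01). The widths of both peaks thus stood near the top in both replicates, and the height of H3K4me3 varied more between them.

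At PDGFRB, H3K4me3 reached 51.0 and 22.0, with widths of 5065 and 5699 bp at percentiles 89.4 and 90.3. H3K27ac reached 21.6 and 28.8, at percentiles 70.0 and 79.2 of the genes with a peak. The H3K27ac peak was 6431 bp wide in replicate 1 and 12388 bp in replicate 2, because replicate 1 had a second peak of 5663 bp next to it (27.5-fold enrichment) which replicate 2 had as part of the same peak. As a site it spanned chr2:151188999-151201572, mostly upstream of the gene, toward the homeobox gene CDX1.

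At KIT, H3K4me3 was 45.4 and 20.9, with widths of 2853 and 3272 bp, close to the median width of all H3K4me3 genes (2740 and 2902 bp). No H3K27ac peak lay at the TSS in either replicate, the nearest being 12958 and 13015 bp away. Among the 1608 genes with H3K4me3 and no H3K27ac, whose median fold enrichment was 20.6 and 11.4, KIT stood high, at percentiles 94.1 and 90.5, and its width at percentiles 88.3 and 87.8. At KDR, H3K4me3 was 25.4 and 13.3, with widths of 1658 and 1781 bp, at percentiles 54.2 and 52.5 of the same genes. KDR was thus a typical member of that class and KIT one of its stronger members. The nearest H3K27ac peak lay 167751 and 167792 bp from the TSS of KDR, at the next gene upstream.

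Within each replicate the H3K4me3 peak of PDGFRA was 4.02 and 3.98 times as wide as that of KIT and 6.91 and 7.31 times as wide as that of KDR. That of PDGFRB was 1.78 and 1.74 times as wide as that of KIT and 3.05 and 3.20 times as wide as that of KDR. The widths of the 4 genes did not overlap between genes over both replicates. In fold enrichment, PDGFRA, PDGFRB and KIT overlapped over both replicates, but the replicates differed in scale. The median of all protein-coding genes with a peak was 52.0 in replicate 1 and 25.2 in replicate 2. Within each replicate KIT was the lowest of these, with ratios of 1.08 and 1.79 for PDGFRA over KIT and 1.12 and 1.05 for PDGFRB over KIT. Within a replicate, the fibroblast receptors therefore differed from KIT less in the height of H3K4me3 at the TSS than in its width. With 2 replicates of 1 condition no test was made.

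**Figure D1:**
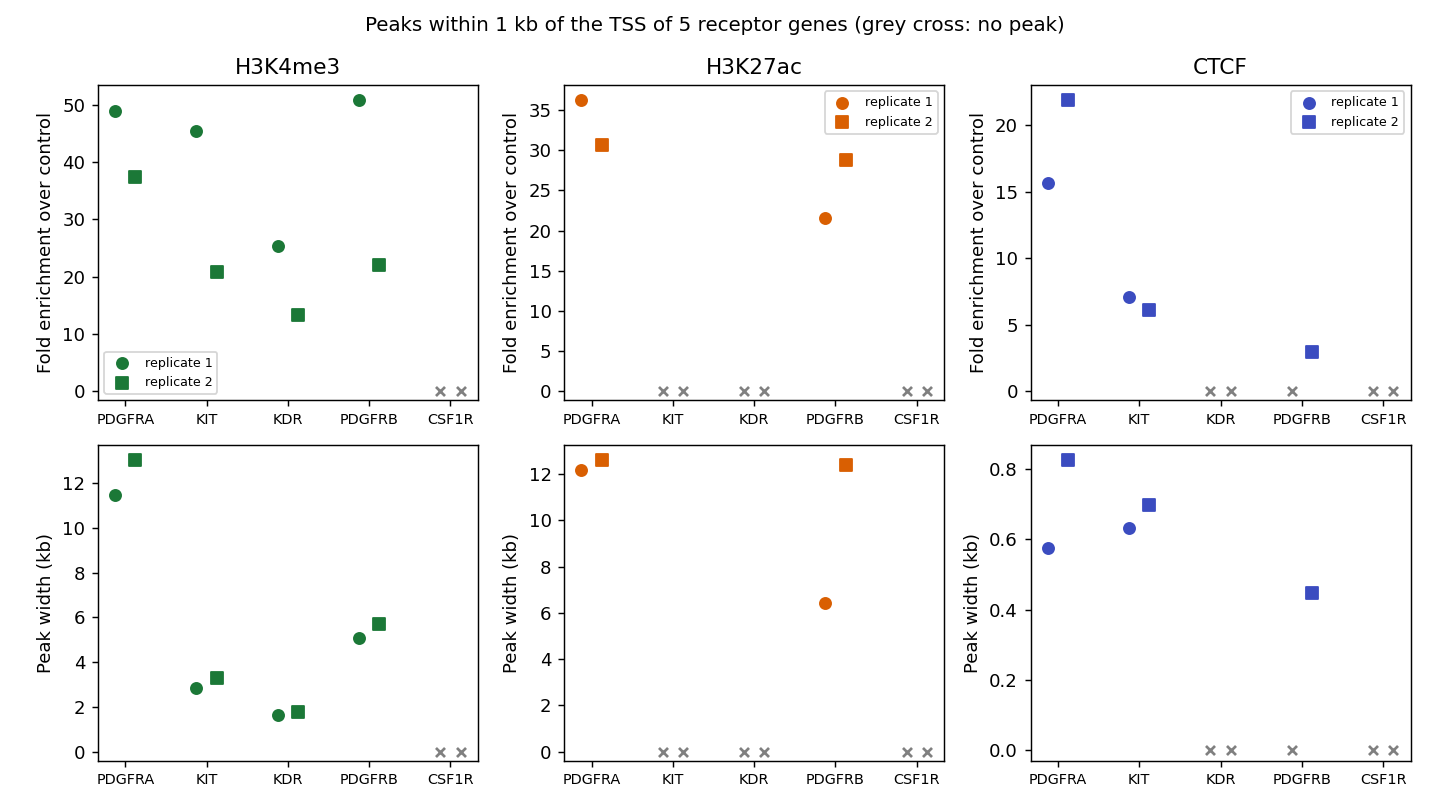
Fold enrichment over control (upper row) and width in kb (lower row) of the highest peak within 1 kb of the TSS of each receptor gene, for H3K4me3, H3K27ac and CTCF. Circles are replicate 1, squares replicate 2 and grey crosses at 0 mean no peak. H3K4me3 is present at 4 genes, H3K27ac only at PDGFRA and PDGFRB, and the H3K4me3 widths of PDGFRA (11457 and 13024 bp) lie above all others.

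**Figure D2:**
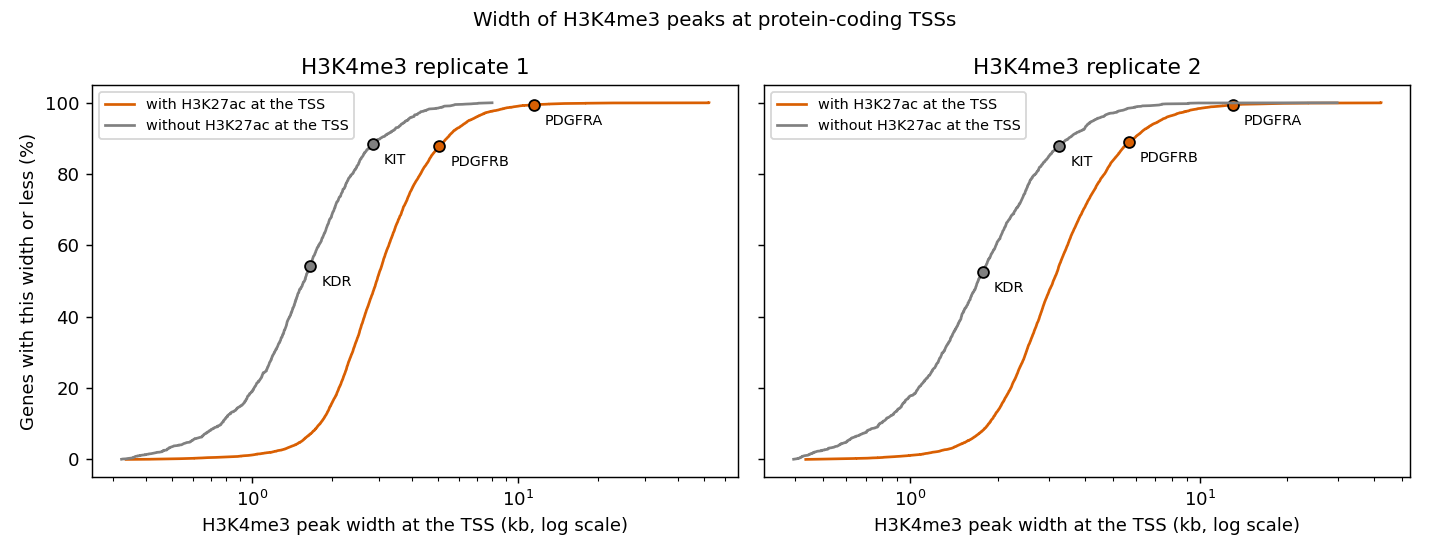
Cumulative share of protein-coding genes (vertical axis, percent) by the width of the H3K4me3 peak at the TSS (horizontal axis, kb, log scale) in replicate 1 (left) and replicate 2 (right), for genes with H3K27ac at the TSS in both replicates (orange, 11476 genes) and in neither (grey, 1608 genes). Points mark the 4 receptors with a peak, each on the curve of its own class. The median widths of the orange curves are 2941 and 3115 bp, those of the grey curves 1577 and 1712.5 bp, and PDGFRA lies at percentile 99.4 of the orange curve in both.

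CSF1R had no peak of any mark within 1 kb of its TSS. The nearest H3K4me3 peaks were 20175 and 20068 bp away and the nearest H3K27ac peaks 20058 and 19893 bp, all of them at 1 place inside the gene. RefSeq gives 2 further TSSs for CSF1R, 698 and 1450 bp downstream of the first, and neither had a peak. For PDGFRB, a second TSS is annotated 15532 bp downstream of the first, at the end of intron 1 of the longer transcript. H3K4me3 of 10.8 and 7.38 and H3K27ac of 13.2 and 16.4 lay there, in peaks 6908 and 6648 bp wide for H3K4me3 and 11103 and 10692 bp wide for H3K27ac. These were weaker but wider H3K4me3 peaks than at the first TSS (5065 and 5699 bp). A broad marked stretch thus overlapped each of the 2 TSSs of PDGFRB, and most of the second stretch lay upstream of the second TSS, in intron 1.

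CTCF was bound within 1 kb of the TSS of PDGFRA and KIT in both replicates. At PDGFRA the peak had a fold enrichment of 15.6 and 21.9, with its nearer edge 826 and 727 bp upstream of the TSS, and it was the only one of the 33 sites without a motif match. At KIT it had 7.10 and 6.11, with its edge 468 and 456 bp downstream. At PDGFRB a weak peak of 2.93 was called in replicate 2 alone. KDR and CSF1R had none, and their nearest CTCF peaks were 127097 and 127057 bp and 25407 and 25366 bp away.

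Along the gene bodies, H3K27ac sites were most dense in the fibroblast receptors. PDGFRB held 6 sites, PDGFRA 5, KIT 2, CSF1R 1 and KDR none, where 70.7% of all protein-coding genes held at least 1. A site at the TSS that reaches into the gene is included in these counts and in the cover below. Since the genes differ in length, the density is the fairer measure, and it was 16.2 sites per 100 kb in PDGFRB, 9.11 in PDGFRA, 3.55 in CSF1R, 2.22 in KIT and 0 in KDR, against a median of 4.24. Peaks of H3K27ac covered 64.2% and 66.8% of PDGFRB and 27.4% and 39.4% of PDGFRA in replicates 1 and 2. They covered 4.25% and 4.15% of CSF1R, 1.85% and 2.20% of KIT and 0% of KDR. The order of the genes was thus the same in both replicates, and no gene's values overlapped those of its neighbours in that order. In PDGFRA the peak at the TSS gave 7596 and 8083 bp of the 15025 and 21593 bp covered. In PDGFRB it gave 3763 and 3819 bp of 23790 and 24754 bp. The count in PDGFRA depended most on the calls, with 9 peaks in replicate 1 and 14 in replicate 2 for 5 shared sites.

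For H3K4me3, 77.0% of protein-coding genes held a site in the body, and so did all 5 receptors, with 4 sites in PDGFRB, 3 in KIT, 2 in PDGFRA and 1 each in KDR and CSF1R. Their cover was 33.2% and 33.7% in PDGFRB and 18.4% and 18.7% in PDGFRA, against 3.37% and 3.85% in KIT, 3.01% and 2.19% in CSF1R and 2.23% and 2.37% in KDR. The values of CSF1R and KDR overlapped, and those of KIT lay just above them. Sites at the TSS are included here too, and in KDR the site at the TSS was the only one. In PDGFRA the peak at the TSS gave 8098 and 9279 bp of the 10104 and 10277 bp covered. The cover by H3K4me3 in PDGFRA and KDR thus largely repeats the values at the TSS. CTCF sites, held by 50.2% of protein-coding genes, numbered 3 in PDGFRB, 2 in KIT and 1 in PDGFRA, and KDR and CSF1R held none.

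**Figure D3:**
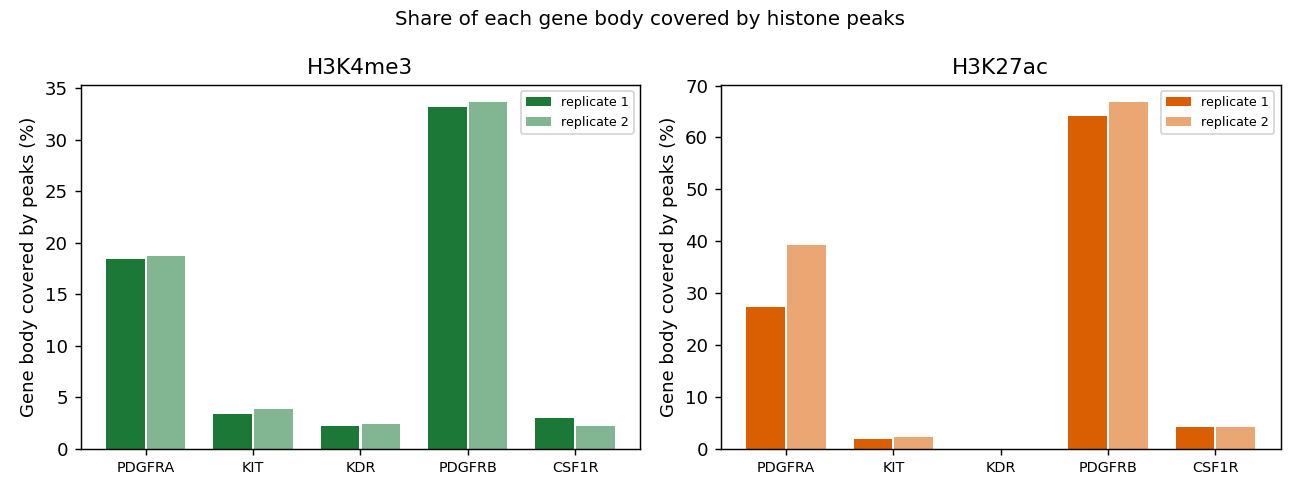
Share of each gene body covered by peaks (vertical axis, percent) for H3K4me3 (left) and H3K27ac (right), with dark bars for replicate 1 and light bars for replicate 2. Peaks at the TSS are included where they reach into the gene. PDGFRB (64.2% and 66.8% for H3K27ac) and PDGFRA (27.4% and 39.4%) stand above KIT, KDR and CSF1R for both marks, and KDR has no H3K27ac.

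Within PDGFRA, the H3K27ac sites beyond the one at the TSS lay in intron 1 (3.40 and 3.99), intron 5 (6.85 and 6.93), intron 10 (4.89 and 4.08) and intron 18 (3.08 and 3.21), all of them far below the 36.3 and 30.7 at the TSS. Further acetylated sites lay upstream, at chr8:40940646-40942121 with 9.87 and 10.6, above those in the introns, and at chr8:40954101-40955418 with 6.23 and 6.41. The second of these overlapped CTCF site 1 (35.0 and 44.4), 11.8 kb upstream of the TSS. Within PDGFRB, apart from the marked stretches at both TSSs, H3K27ac lay in intron 1 (4.47 and 5.26), around intron 8 (3.76 and 4.03), in intron 10 (2.78 and 3.29) and in intron 14 (4.69 and 5.74). The acetylated site around intron 8 overlapped CTCF site 7.

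Within KIT, both H3K27ac sites were in intron 8, at chr8:41461220-41462143 with 3.24 and 3.69 and at chr8:41469627-41470944 with 3.29 and 4.62. The latter also had a weak H3K4me3 site (3.47 and 4.07), and a further H3K4me3 site of 4.31 and 4.20 lay over the 3′ end of the gene. None of these came near the 45.4 and 20.9 of H3K4me3 at the TSS. Within CSF1R, the only sites of both marks were at the same place in intron 11, 20.5 kb downstream of the TSS. H3K27ac, at chr2:151109056-151110418, was 5.62 and 5.72, and H3K4me3, at chr2:151109289-151110243, was 7.14 and 3.63. CSF1R thus had an unmarked start and a single weakly marked stretch in the middle of the gene.

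The DNA between PDGFRA and KIT was almost free of H3K27ac. Between the end of PDGFRA and the start of KIT, 381 kb held 1 H3K27ac site (3.29 and 2.64, at chr8:41388761-41389376), or 2.63 per Mb, compared with 25.7 per Mb over chromosomes 1 to 18 and X. It held 3 H3K4me3 sites, with fold enrichments between 3.79 and 7.65, and 4 CTCF sites. By contrast, the 317 kb between KIT and KDR held 7 H3K27ac sites, or 22.1 per Mb, all between chr8:41545856 and chr8:41636249. All were low in fold enrichment (between 1.65 and 5.96), but their −log10 q-values ran from 1.91 and 1.42 at chr8:41554579-41555582 to 19.96 and 38.2 at chr8:41556741-41557965. The site upstream of PDGFRA with 9.87 and 10.6 had −log10 q-values of 32.5 and 35.5. Whether copy number plays a part in these values was not tested. The acetylated sites thus stood in the KIT side of that stretch, and none lay on the KDR side.

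From TSS to TSS, 5 CTCF sites lay between PDGFRA and KIT, 6 between KIT and KDR and 3 between PDGFRB and CSF1R, or 11.5, 13.2 and 48.0 per Mb against 15.8 per Mb in the genome. The sites differed in strength. Between PDGFRA and KIT, site 4 had 58.8 and 56.1 and site 7 had 38.1 and 39.9, with the weaker sites 5 (26.5 and 28.4) and 6 (8.73 and 14.0) between them. Between KIT and KDR, site 11 had 55.6 and 50.7 and site 12 had 30.2 and 24.5, only 10.2 kb apart. Beyond KDR, site 14 had 57.0 and 62.8. Between each receptor on chromosome 8 and the next there was thus at least 1 CTCF site of more than 50-fold enrichment in both replicates. The median over all CTCF peaks was 19.7 and 19.2. This limit was chosen from the values themselves, and the share of all CTCF sites that reach it was not computed.

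Counted between these CTCF sites, the H3K27ac sites were unevenly spread. The spans differ in length, so the counts are not rates. Over chromosomes 1 to 18 and X there were 25.7 H3K27ac sites per Mb, and from the TSS of KIT to that of KDR 19.8 per Mb. Between CTCF sites 1 and 4, which enclose 81.1 kb with PDGFRA, there were 6 H3K27ac sites, 1 of them overlapping CTCF site 1. From site 4 to site 8, which lies just inside KIT, 367 kb held 1. From site 8 to site 11, 307 kb held 9, of which 6 lay between sites 9 and 10. From site 11 to site 14, 299 kb with the whole of KDR held none, although it held 2 H3K4me3 sites, 1 of them at the TSS of KDR and the other (5.19 and 3.57) upstream of it. No interaction data were analysed here, so whether these CTCF sites form loops or borders was not tested.

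The motifs between the members changed direction several times. Sites 4 and 5 were on the plus strand and sites 6 and 7 on the minus strand, so that they pointed toward each other across the DNA downstream of PDGFRA (128 kb from site 4 to site 7). Site 8, in KIT, was on the plus strand and faced sites 10 and 11 on the minus strand, across 307 kb from site 8 to site 11 that hold most of the gene and 9 H3K27ac sites. Sites 12 and 13 were on the plus strand and faced sites 14 and 15 on the minus strand, across 303 kb that hold KDR and no H3K27ac site. Hence, sites 11 and 12 pointed away from each other between KIT and KDR, and so did sites 7 and 8 between PDGFRA and KIT. With a stricter motif p of 1e-05, sites 8 and 13 had no motif, and the facing sets downstream of PDGFRA and around KDR kept at least 1 motif on each side. A weaker match on the other strand was present at sites 10 and 14. At PDGFRA itself, the motifs of sites 1 and 3, 11.8 kb upstream and 4.92 kb downstream of the TSS, were on the minus strand, and site 3 had a weaker match on the plus strand.

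**Figure D4:**
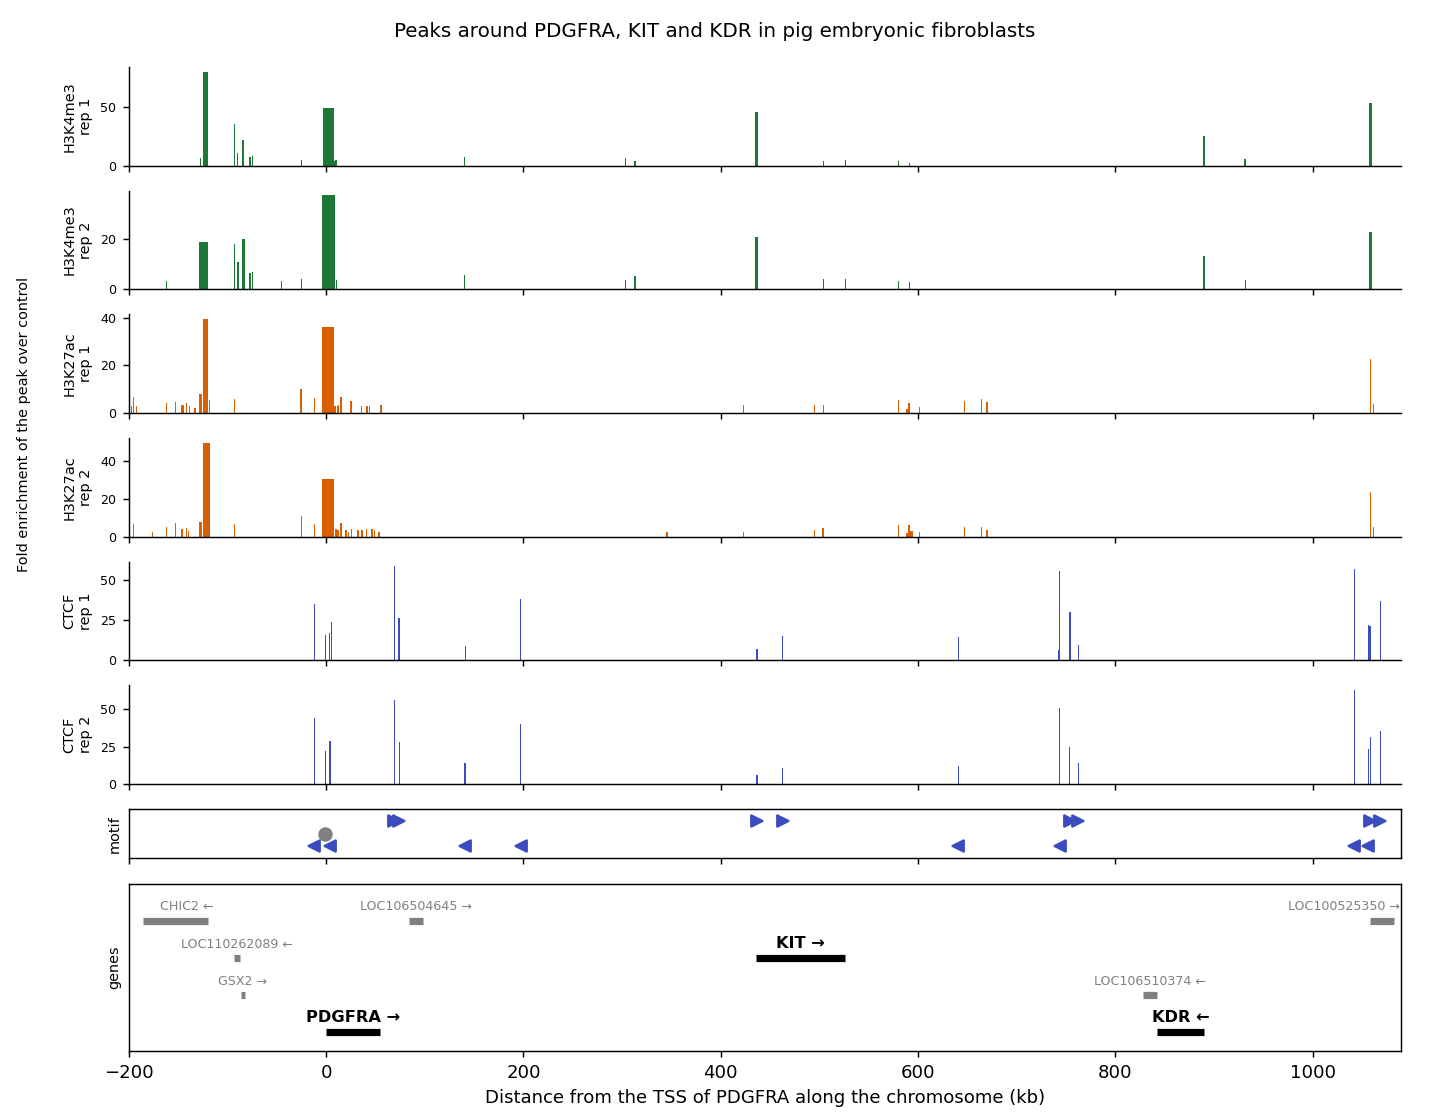
Peaks in 6 libraries around PDGFRA, KIT and KDR by distance from the TSS of PDGFRA (horizontal axis, kb). The height of a bar is the fold enrichment of the peak and its breadth is the extent of the peak, with peaks narrower than 1.29 kb drawn at that breadth. Arrowheads show the strand of the best CTCF motif of each site (upper row plus, lower row minus, grey circle no motif), and bars at the bottom show genes with their direction. H3K27ac is dense at PDGFRA, absent over KDR, and nearly absent in the 381 kb between PDGFRA and KIT.

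Between PDGFRB and CSF1R the arrangement was tighter. The 25.4 kb between the genes held no site of any of the 3 marks. The 3 CTCF sites between the TSSs all lay inside PDGFRB, with site 6 in its last exon (5.75 and 7.46), site 7 in intron 9 (26.5 and 29.2) and site 8 in intron 1 (6.63 and 7.64). Their motifs were weak, plus, minus and plus in order, and none of the 3 passed the stricter p of 1e-05. Strong motifs stood outside, at site 9 upstream of PDGFRB (28.7 and 38.7) and at site 5 in an intron of HMGXB3, beyond the 3′ end of CSF1R (16.5 and 16.7), both on the plus strand, with a weaker match on the other strand at site 9. The 71.4 kb from site 5 to site 6, which hold the whole of CSF1R, had 3 H3K27ac sites, 1 of them in CSF1R, and the 41.6 kb from site 6 to site 9, which hold PDGFRB, had 6. Unlike on chromosome 8, no CTCF site lay between the end of PDGFRB and the start of CSF1R, and the last shared H3K27ac site of PDGFRB ended inside the gene, at chr2:151162512.

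**Figure D5:**
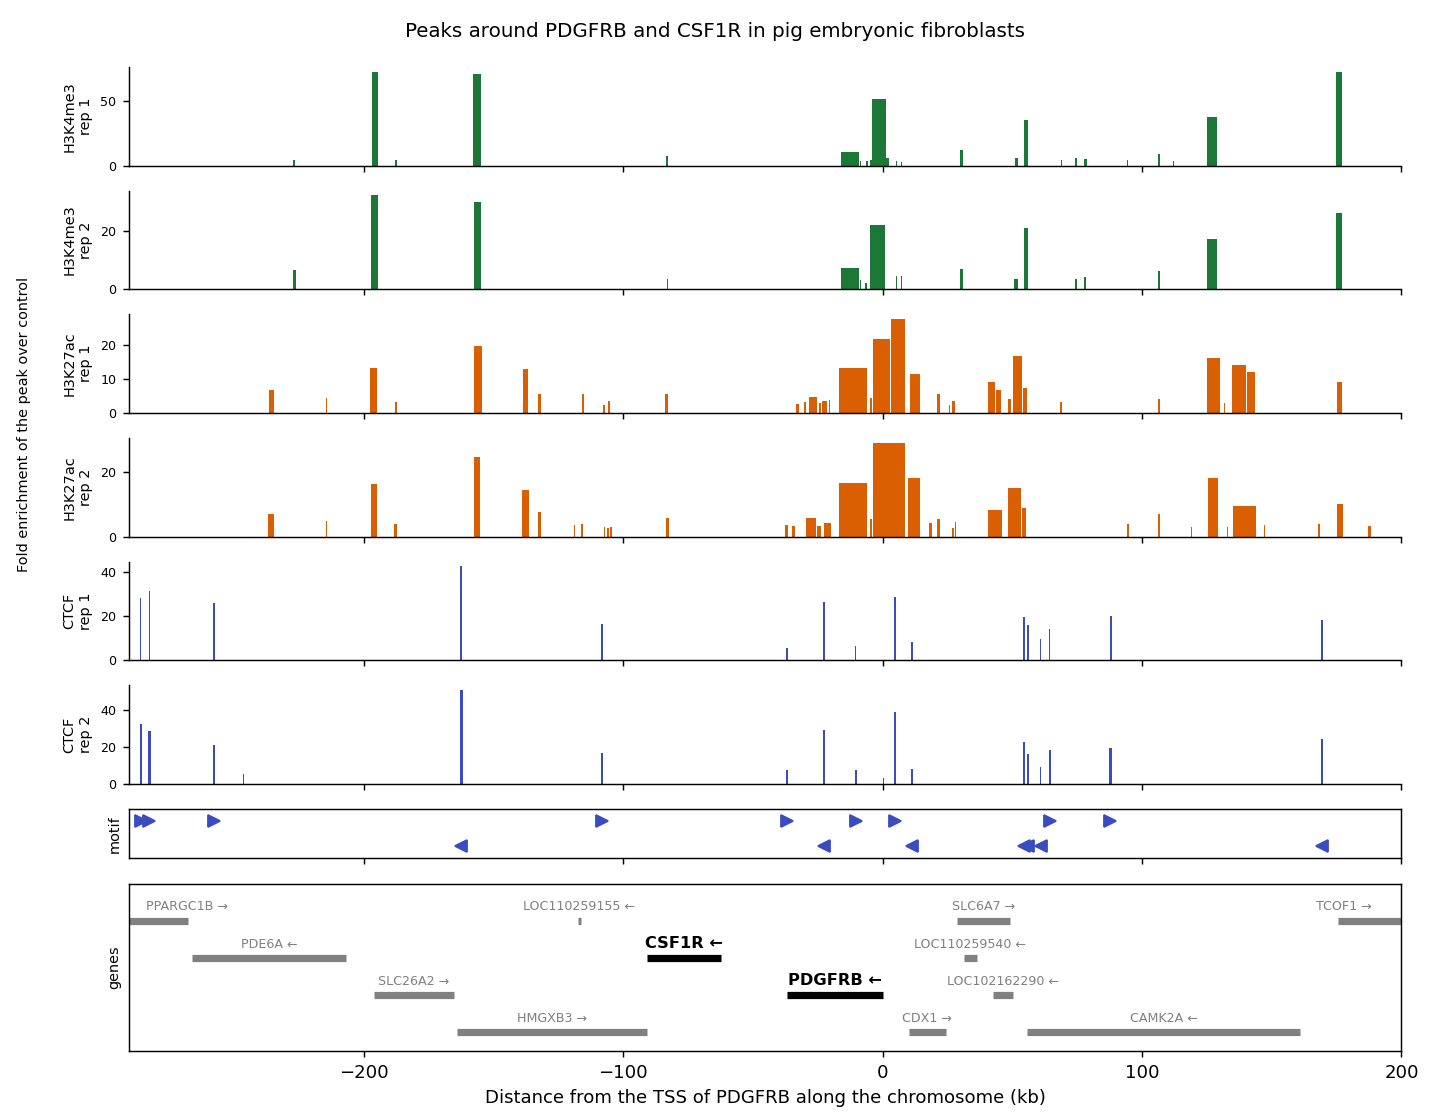
Peaks in 6 libraries around PDGFRB and CSF1R by distance from the TSS of PDGFRB (horizontal axis, kb), drawn in the same way, with peaks narrower than 0.491 kb drawn at that breadth. H3K27ac peaks fill most of PDGFRB and continue to the right of its TSS, while CSF1R holds 1 site, and no peak shared by both replicates lies between the genes.

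Over the 200 kb on either side of each TSS, PDGFRB and CSF1R had 25 H3K27ac sites each, as their windows overlap. PDGFRA had 16, KIT 7 and KDR 2, against a median of 14. Peaks of H3K27ac covered 79.1 and 86.7 kb around PDGFRB, 41.3 and 45.0 kb around PDGFRA, 6.45 and 7.56 kb around KIT and 3.65 and 3.38 kb around KDR, at percentiles 91.2 and 92.1, 64.2 and 66.2, 12.9 and 14.3, and 8.98 and 8.52 of all protein-coding genes. CSF1R, with 73.6 and 78.7 kb, therefore lay in acetylated surroundings without a marked start. KIT and KDR had H3K4me3 at the start and less H3K27ac around it than the median gene, KDR the least. CTCF was sparse around KIT, with 2 sites against a median of 9, at percentile 4.77.

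Taken from the ends of each gene rather than from its TSS, the 200 kb on either side overlapped 17 other RefSeq genes, 12 protein-coding and 5 lncRNAs. Of these, 6 had H3K4me3 at the TSS in both replicates, 9 had H3K27ac and 2 had CTCF. Of the 12 protein-coding ones, 5 had H3K4me3, 8 had H3K27ac and 2 had CTCF, against 68.9%, 60.7% and 17.9% of all protein-coding genes. Before PDGFRA, CHIC2 had both marks (79.6 and 18.8 for H3K4me3, 39.5 and 49.7 for H3K27ac). GSX2, a homeobox gene of the nervous system, had no peak within 1 kb, and an H3K4me3 site of 22.0 and 20.0 without H3K27ac began 1186 and 1203 bp downstream of its TSS. By the call at the TSS, GSX2 thus counted with the genes that had neither histone mark. Upstream of KDR, LOC100525350 had H3K4me3 of 52.9 and 22.7, H3K27ac of 22.8 and 23.8 and CTCF of 21.1 and 31.6. Next to PDGFRB, the intestinal homeobox gene CDX1 had H3K27ac of 11.4 and 18.04 and no H3K4me3 within 1 kb. SLC26A2, a sulfate transporter, TCOF1, a nucleolar protein gene, and PPARGC1B had both marks, as had LOC102162290. SLC6A7 and LOC110259155 had H3K27ac and no H3K4me3 shared by both replicates, and PDE6A, HMGXB3, CAMK2A, LOC110262089, LOC106504645, LOC106510374 and LOC110259540, like GSX2, had neither histone mark at the annotated TSS. Inside HMGXB3, however, H3K4me3 of 70.5 and 30.1 began 6257 and 6298 bp downstream of the TSS, with H3K27ac of 19.8 and 24.4. An intron of CAMK2A held H3K4me3 of 37.4 and 17.3 and H3K27ac of 16.2 and 17.9.

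Ligands of these receptors were read at their own TSSs, in a list that also holds VEGFB and PGF. VEGFB and PGF are relatives of VEGFA rather than ligands of these receptors, and they are included in the counts that follow. Of 12 listed, 11 were found in the annotation (PDGFB was not matched), and 9 had H3K4me3, 10 had H3K27ac and 9 had both at the TSS, where 68.9%, 60.7% and 58.9% of all protein-coding genes did. KITLG, the ligand of KIT, had 57.7 and 38.7 for H3K4me3 and 14.9 and 25.9 for H3K27ac. VEGFA, a ligand of KDR, had 91.5 and 34.9 for H3K4me3 and 29.0 and 40.2 for H3K27ac. CSF1, a ligand of CSF1R, had 58.1 and 35.7 for H3K4me3 and 28.0 and 32.1 for H3K27ac. Thus, each of the 3 receptors without H3K27ac at the TSS had at least 1 ligand with both marks. PDGFA, PDGFC, PDGFD, VEGFB, PGF and IL34 had both marks too. The other listed ligands of KDR, VEGFC and VEGFD, went the other way. VEGFC had H3K27ac (17.5 and 18.8) and H3K4me3 in replicate 2 alone (18.4), and VEGFD had neither.

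Among 5 related receptors and co-receptors, all had H3K4me3 and 2, the co-receptors NRP1 and NRP2, had H3K27ac in both replicates. Over all protein-coding genes these shares were 68.9% and 60.7%, and 12.0% of genes with H3K4me3 had no H3K27ac. FLT3 (26.8 and 11.6 for H3K4me3), a receptor of blood progenitors, and FLT4 (27.6 and 17.998), a receptor of lymphatic endothelium, had no H3K27ac, as was found for KIT and KDR. FLT1, another VEGF receptor, had H3K4me3 of 60.1 and 27.4 and an H3K27ac peak in replicate 2 alone (15.3). Of 12 intracellular partners that the receptors share, such as the adaptor GRB2, the phosphatase PTPN11 and STAT3, 11 had both marks, against 58.9% of all protein-coding genes. PIK3CA had no peak at its annotated TSS.

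Markers of the lineages involved were read in the same way, against 58.9% of all protein-coding genes with both histone marks and 27.5% with neither. All 11 fibroblast markers had both histone marks, for example COL1A1 with 52.0 and 27.6 for H3K4me3 and 26.7 and 31.6 for H3K27ac, and 6 of 8 pericyte and smooth muscle markers did, with RGS5 at none. Of 10 endothelial markers, 6 had neither mark (PECAM1, CDH5, TEK, TIE1, EMCN and VWF), 3 had H3K4me3 without H3K27ac (CLDN5, ESAM and SOX17), and ERG had both. Of 8 macrophage markers, 5 had neither, among them PTPRC and CD163, while CD68 and CD14 had both and SPI1 had H3K27ac only. Of 7 melanocyte markers, 5 had neither and MITF and PMEL had both. Of 7 haematopoietic and mast cell markers, 4 had both, LYL1 had H3K27ac in both replicates, and GATA1 and CPA3 had neither, which is near the shares of all genes. Genes with neither mark thus made up more of the endothelial, macrophage and melanocyte lists than of all genes, and about as much of the haematopoietic and mast cell list. The part of other cells in the H3K4me3 at KIT and KDR was not tested.

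The genes most like each receptor were found by the distance between the 6 values of log2(1 + fold enrichment) at the TSS, 1 per library, over 19487 protein-coding genes. For PDGFRA these were CDC40, ZEB2 and PRRC2C, at distances between 0.426 and 0.470. For KIT they were ADAM11, ASCL4 and PDZD2, between 0.302 and 0.379, all with H3K4me3 and CTCF and no H3K27ac. For KDR they were MYO5C, SMPD5 and SALL3, between 0.0266 and 0.0394, with H3K4me3 alone. For PDGFRB they were IRX5 at 0.191 and the neighbouring pair GOLT1B and RECQL, which share the same peaks, at 0.318. CSF1R, without any peak, was tied with 5088 genes.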

How the data were processed

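The samples were 6 ChIP-seq libraries of untreated PEFs, a pair of replicates for each of H3K4me3, H3K27ac and CTCF. Reads were aligned by the authors with bowtie2, limited to unique fragments free of Picard duplicates, and MACS2 then called narrow peaks for each library. The submitters' processing notes name Sscrofa11.1. The deposited lists give for each peak a score (not used), a fold enrichment (a ratio over control), p- and q-values as −log10, and the summit. The methods state a q-value of 0.01, but the deposited lists reach q-values between 0.0432 and 0.0499 and were used as deposited, with 37932 to 81164 peaks per library. They give no reads per peak, so the depth behind a value is unknown and no interval was computed. Input libraries were not analysed here.

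Peaks on chromosomes 1 to 18 and X were joined to RefSeq genes with Python 3.11.15 and numpy 2.4.6. A site needed overlap of at least 1 bp between replicates, and a TSS call a peak of both within 1 kb of the 5′ end of the gene. A site was counted in an interval by its midpoint and in a gene by any overlap. The CTCF motif (19 bp) was learned from the sequences of 600 peaks, tested on simulated data, and searched within 100 bp of the summits. The motif of 1 CTCF site is not reported here. Genes named in the text were the 5 receptors, all genes within 200 kb, lists of ligands, related receptors, intracellular partners and cell type markers, and the 3 nearest genes by log2(1 + fold enrichment). The members and lists were chosen with earlier results of these data known. The alternatives were a limit of 5 on the −log10 q-value, a 50% overlap, each replicate alone, 5 kb in place of 1 kb, all annotated TSSs, and a motif p of 1e-05.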

Additional observations from a re-analysis of the deposited data

How the results depend on the processing

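The same receptors were called with H3K4me3 and with H3K27ac at the TSS under all alternatives tried, and PDGFRB was added for CTCF without replicate 1 and at 5 kb. Of 50 alternative values for 11 counts (TSS calls, H3K27ac sites in the 5 genes, CTCF sites between TSSs), 47 were within 1.5 times the reported count. The exceptions were all H3K27ac sites in PDGFRA, 5 as reported, 3 with a −log10 q-value of at least 5, and between 9 and 14 when either replicate was left out. Of 68 values for 20 other results, 12 moved further. With a −log10 q-value of at least 5, H3K4me3 sites fell from 4 to 2 in PDGFRB and from 1 to 0 in CSF1R, where the peak of replicate 2 in intron 11 had a −log10 q-value of 4.74 and that of replicate 1 had 18.6. H3K27ac sites between the TSSs of PDGFRA and KIT, 6 as reported, numbered 3 with that limit, 16 without replicate 1 and 11 without replicate 2. At 5 kb the shares of all genes with H3K4me3, H3K27ac and CTCF were 74.7%, 66.9% and 35.0%.

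No paired analysis was possible because the results come from no test. Peak widths and counts depend on where the peak caller joins or splits a marked stretch, as at the TSS of PDGFRB. Peaks without a partner in the other replicate were weak in both neighbourhoods, with fold enrichments of at most 6.52.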
